A study of Mus musculus with 26 samples.

Results

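EryCP cells were compared with CR Sca1lo cells, 2 fractions of EML cells that had been separated by flow cytometry. EML is a mouse haematopoietic line that grows in stem cell factor and was made with a dominant-negative retinoic acid receptor alpha, so all fractions described here carry that transgene and come from 1 cell line. The members were the first EryCP samples (3 arrays, samples labelled as a repeat left out) and the CR Sca1lo samples (3 arrays), which are 6 of the 26 arrays of the series. Both fractions were grown in IMDM with horse serum and medium conditioned with stem cell factor, with no erythropoietin named for them in the labels, and were sorted on Sca1, CD34 and cKit. Where the gates were set on each marker is not stated in the labels. Sca1hi cells (3 arrays) lay on the same slides and shared the fit. CD34- CD103- and CD34+ CD103- cells (4 arrays each), fractions of the same line without erythropoietin on a later set of arrays, served for 1 further comparison. Each sample was total RNA labelled with Cy3 and hybridised to an Agilent array of 1 colour.

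Committed erythroid progenitors are driven by the transcription factors GATA1 and KLF1, respond to erythropoietin through its receptor, and go on to make haemoglobin, heme and the red cell membrane. GATA2 works earlier, in stem cells, multipotent progenitors and mast cells. Mast cells and basophils share parts of this programme with erythroid cells and store histamine and proteases in granules. CD34 is a surface sialomucin carried by early progenitors.

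Levels are given as the processed signal in percent of the array's 75th percentile over all probes, so that 100 is the 75th percentile itself, and the 3 values of a fraction run in the order of slides 1, 2 and 3. Each slide held 1 array of each fraction, and differences were taken within slides. They are given as log2 of EryCP over CR Sca1lo ± standard error (n = 3 arrays per fraction). A gene was called when limma's adjusted p was under 0.05. Levels of different genes are not compared, since probes differ in brightness, and a level summed over a list, in which bright probes weigh most, is set only against the same sum in the other fraction. The labels do not say that the samples of a fraction came from separate cultures, so p-values measure only the spread between these samples, which may be technical. The 75th percentile lay between 648.8 and 1034 on the 6 arrays, 81.3% to 93.8% of probes were well above background, and 0 spots were saturated. The number of arrays limits the precision, and the median standard error over all genes was 0.1.

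Of 26468 genes tested, 5342 were called (20.2%), 2390 higher (9.03%) and 2952 lower (11.2%) in EryCP cells. All 5342 had the same sign on every slide. The groups did not overlap for 4800 of all genes tested (18.1%). Small differences made up most of the calls: 521 genes were called at least 2-fold higher (1.97%) and 393 at least 2-fold lower (1.48%). Large differences lay mostly on the higher side, with 68 genes called at least 8-fold higher against 12 lower, and 28 at least 16-fold higher against 1 lower. That 1 gene was Cd34. The median log2 difference of all genes was -0.07, and the middle of the distribution was narrow, with a 5th percentile of -0.61 and a 95th of 0.59. Without the slide block 1311 genes were called (4.95%), 714 higher (2.7%) and 597 lower (2.26%), all of them among the 5342, so 54.5% of those calls were higher in EryCP against 44.7% with the block. Scaling on the spike-in probes gave 1796 calls, 55.6% of them higher, and normexp background correction 9 calls, all higher, with the median of all genes at -0.55. Counts without the slide block are given in brackets beside those of each gene group below, to be set against the 4.95% of all genes.

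**Figure D1:**
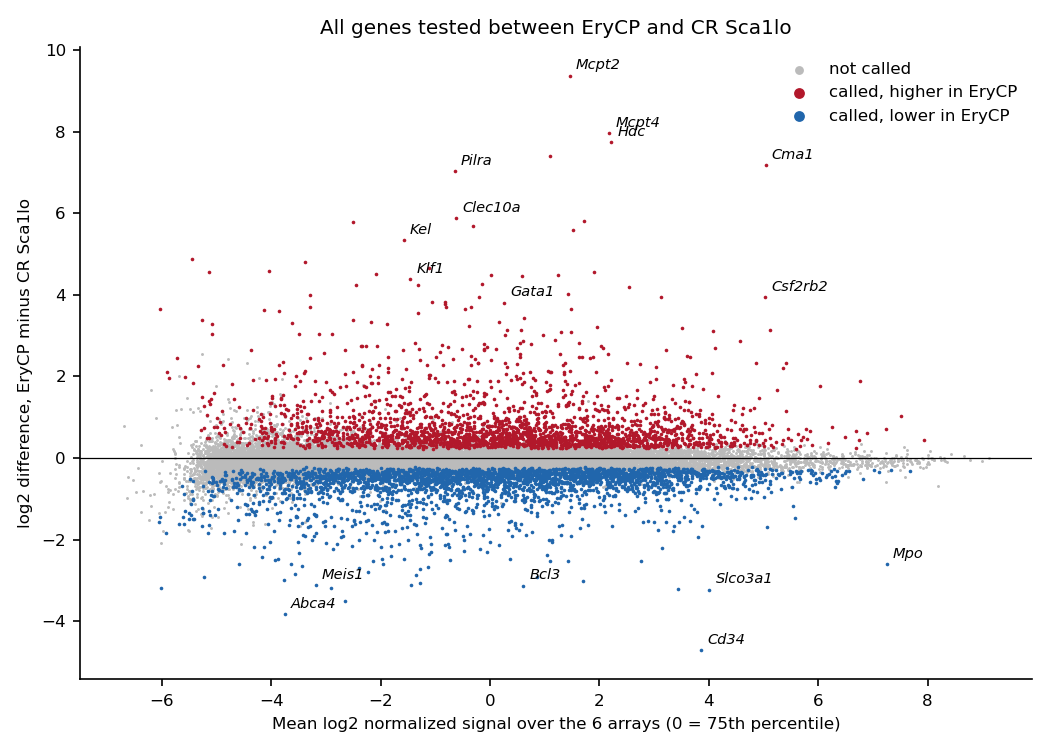
Mean log2 normalized signal over the 6 arrays (x axis, 0 at the 75th percentile) against the log2 difference of EryCP minus CR Sca1lo (y axis) for the 26468 genes tested, with genes called higher in red, called lower in blue and not called in grey. The plot reaches 9.38 (Mcpt2) above 0 and -4.72 (Cd34) below it.

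The sorting markers were read first, as a check of the labels and not as a finding. Cd34 had levels of 419, 222 and 243 in EryCP cells, against 8120, 6600 and 7720 in CR Sca1lo cells. All 3 EryCP arrays lay far below all 3 CR Sca1lo arrays, a difference of -4.72 ± 0.15 (26.3-fold lower, adjusted p = 1.78e-05). In a bulk sample, fewer cells with a transcript and less of it per cell cannot be told apart. Ly6a, the gene of Sca1, had levels of 21.7, 23.1 and 18.5 in EryCP cells and 37.1, 40 and 35.6 in CR Sca1lo cells, and fell by 0.84 ± 0.09 (adjusted p = 0.0015). Both fractions were far below Sca1hi cells, which had 1800, 1710 and 1820. Kit, the receptor for stem cell factor, had 4040, 2870 and 3130 in EryCP cells and 2160, 2090 and 2530 in CR Sca1lo cells (0.56 ± 0.12, adjusted p = 0.0249). Its groups did not overlap, but the call was lost without the slide block (adjusted p = 0.202) and without the slide 1 or slide 2 array of either fraction (0.0551 to 0.0871). The call was also lost with scaling on the spike-in probes (0.201) and with the 6 arrays of the 2 fractions alone (0.0756). Itgae encodes CD103, an integrin chain that is not among the markers named for this sort. It rose to 976, 857 and 1150 in EryCP cells, against 72.7, 80.7 and 81.4 in CR Sca1lo cells (3.66 ± 0.12, 12.6-fold, adjusted p = 1.93e-05).

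Erythroid transcription factors split into genes that rose and genes that fell. Of 18 tested, 7 rose and 5 fell (5 and 2), 66.7% called against 20.2% of all genes. Their median was 0.22, against -0.07 for all genes. Klf1, the red cell factor that binds CACCC boxes, had 147, 144 and 218 in EryCP cells, against 6.5, 7.47 and 10.5 in CR Sca1lo cells. The slide 3 array was the highest in both fractions, and the difference of 4.38 ± 0.18 (20.8-fold, adjusted p = 3.92e-05) varied little between slides (4.27 to 4.5). Gata1 had 480, 425 and 442 in EryCP cells, against 26, 36.5 and 34.5 in CR Sca1lo cells, with no overlap (3.81 ± 0.14, 14-fold, adjusted p = 2.78e-05). Gata2 was already bright in CR Sca1lo cells (1380, 1110 and 1430) and reached 7500, 5560 and 6680 in EryCP cells (2.33 ± 0.07, adjusted p = 1.7e-05). Its 2 probes gave the same difference. Among the genes that fell was Lyl1, a relative of TAL1, with 1950, 1560 and 2430 in EryCP cells and 4220, 3080 and 4410 in CR Sca1lo cells (-0.98 ± 0.09, adjusted p = 0.000767). Klf3, a repressor of the KLF family, also fell (-1.1 ± 0.1, adjusted p = 0.00073). The Sca1hi fraction had Klf1 at 5.96, 8.42 and 6.6 and Gata1 at 32.5, 46.2 and 39.3, in or near the range of CR Sca1lo cells.

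The 250 bases before the start of 6 genes that results turn on are shown for their GATA and CACC letters, from RefSeq on GRCm38.p6, 5′ to 3′ on the strand of the gene. Capitals mark AGATAA or TGATAA (the GATA letters) and CCNCNCCC (the CACC letters), each on either strand. The windows are chr8:84901732-84901981 (+ strand) for Klf1, chrX:7967911-7968160 (- strand) for Gata1, chr9:21963577-21963826 (- strand) for Epor, chr6:41704326-41704575 (- strand) for Kel, chr2:126618679-126618928 (- strand) for Hdc and chr1:194938571-194938820 (+ strand) for Cd34.
Klf1: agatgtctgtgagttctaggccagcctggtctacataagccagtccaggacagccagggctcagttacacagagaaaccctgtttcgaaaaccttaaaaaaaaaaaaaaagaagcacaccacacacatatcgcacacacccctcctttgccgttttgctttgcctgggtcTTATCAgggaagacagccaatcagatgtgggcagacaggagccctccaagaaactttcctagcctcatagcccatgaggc
Gata1: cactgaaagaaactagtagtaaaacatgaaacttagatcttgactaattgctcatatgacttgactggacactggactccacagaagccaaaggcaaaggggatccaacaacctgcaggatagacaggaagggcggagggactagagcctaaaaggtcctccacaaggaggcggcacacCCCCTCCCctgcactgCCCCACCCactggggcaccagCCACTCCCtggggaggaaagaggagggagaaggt
Epor: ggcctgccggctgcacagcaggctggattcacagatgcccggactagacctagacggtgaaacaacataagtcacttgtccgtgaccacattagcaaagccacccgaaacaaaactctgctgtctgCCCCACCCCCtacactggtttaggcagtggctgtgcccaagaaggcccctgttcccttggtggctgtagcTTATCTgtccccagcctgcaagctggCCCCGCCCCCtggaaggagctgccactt
Kel: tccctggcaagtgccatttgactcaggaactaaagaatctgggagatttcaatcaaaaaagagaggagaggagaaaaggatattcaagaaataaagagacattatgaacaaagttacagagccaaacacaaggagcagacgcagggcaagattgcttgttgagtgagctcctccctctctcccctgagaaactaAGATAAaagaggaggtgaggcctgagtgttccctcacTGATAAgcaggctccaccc
Hdc: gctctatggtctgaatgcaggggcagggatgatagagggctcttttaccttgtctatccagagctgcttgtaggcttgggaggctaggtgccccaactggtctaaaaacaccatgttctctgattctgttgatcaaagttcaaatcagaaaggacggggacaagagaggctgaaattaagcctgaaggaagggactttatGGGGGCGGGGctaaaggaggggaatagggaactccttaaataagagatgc
Cd34: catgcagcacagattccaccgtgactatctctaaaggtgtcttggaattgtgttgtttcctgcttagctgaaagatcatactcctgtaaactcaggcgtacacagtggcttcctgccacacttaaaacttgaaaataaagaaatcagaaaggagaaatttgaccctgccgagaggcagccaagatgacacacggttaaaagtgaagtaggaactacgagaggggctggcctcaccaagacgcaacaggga
The GATA letters stand once before Klf1, once before Epor and at 2 places before Kel, 3 genes that rose. They are not in the windows of Gata1 and Hdc, which rose too and hold the CACC letters at 3 and 2 places, or of Cd34, which holds neither. The CACC letters of Epor, counted at 4 places, overlap each other within 2 runs, and those of Hdc within 1. Of the 13346 genes tested that have such a window, 12.6% hold the GATA letters, against 19.8% of the 344 called at least 2-fold higher and 11.4% of the 219 called at least 2-fold lower. For the CACC letters the shares are 58% of all, 65.7% of the higher and 63.5% of the lower genes. AGGAAGT, the letters of an ETS site, stand in 7.37%, 9.01% and 11.4% of those windows. These shares describe letters only and were given no test.

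**Figure D2:**
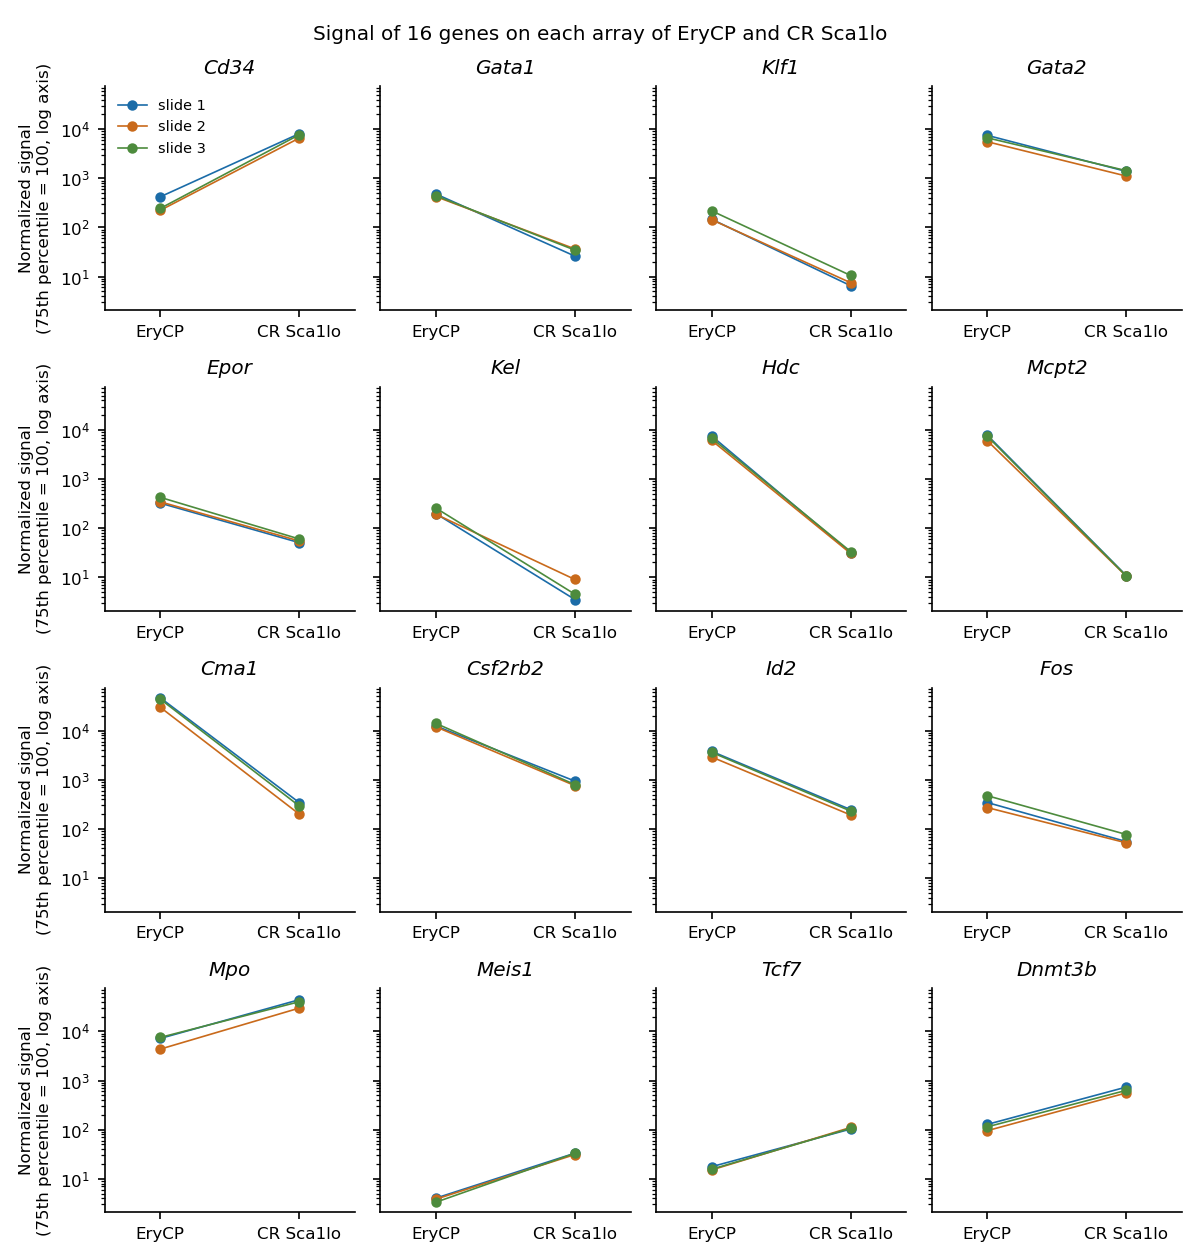
Normalized signal (log axis, 75th percentile = 100) of 16 genes on each EryCP array and on the CR Sca1lo array of the same slide, joined by lines, 1 colour per slide. Cd34, Mpo, Meis1, Tcf7 and Dnmt3b are lower in EryCP on all 3 slides and the other 11 genes are higher on all 3.

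The receptor for erythropoietin rose while parts of the pathway under it moved apart. Epor had 324, 344 and 425 in EryCP cells, against 50.7, 54.9 and 60.2 in CR Sca1lo cells (2.71 ± 0.1, 6.57-fold, adjusted p = 2.18e-05), and all EryCP arrays lay above all CR Sca1lo arrays. Of 12 genes of erythropoietin signalling, 5 rose and 3 fell (3 and 2), 66.7% called against 20.2% of all genes, with a median of 0.01. Cish, a feedback inhibitor that STAT5 induces, rose to 148, 134 and 169 in EryCP cells, against 44.3, 34.8 and 38.5 in CR Sca1lo cells (1.94 ± 0.09, adjusted p = 6.21e-05). Socs3, another feedback inhibitor of cytokine receptors, fell to 38.6, 36.8 and 34.6 in EryCP cells, against 148, 133 and 136 in CR Sca1lo cells (-1.92 ± 0.08, adjusted p = 4.27e-05). Sca1hi cells had still more Socs3 (850, 654 and 744). Pim1, a kinase gene induced by cytokines, fell by 0.76 ± 0.09 (adjusted p = 0.00237). The 2 STAT5 genes were not called (Stat5a -0.23, Stat5b 0.11).

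Most heme enzymes rose. Of 15 genes of heme synthesis and breakdown, 13 rose and 0 fell (6 and 0), 86.7% against the 20.2% of all genes, with a median of 0.71. Alas2, the first enzyme of the pathway in red cells, averaged 51.4 in EryCP cells, against 7.62 in CR Sca1lo cells (2.75 ± 0.23, 6.75-fold, adjusted p = 0.00057). Blvrb, which reduces biliverdin, had 1010, 848 and 767 in EryCP cells and 225, 148 and 116 in CR Sca1lo cells (2.47 ± 0.11, adjusted p = 5.02e-05). Both kept their groups apart, and Sca1hi cells had Blvrb between them (538, 382 and 329). Of 5 globin genes 3 rose and 1 fell (2 and 0), 80% called against 20.2% of all genes. The embryonic gene Hbb-bh1 had 244, 231 and 310 in EryCP cells and 22.8, 20.8 and 18.2 in CR Sca1lo cells (3.66 ± 0.16, adjusted p = 4.32e-05). Hba-a1, of the adult alpha globins, had 109, 120 and 141 in EryCP cells and 19.8, 26.6 and 30 in CR Sca1lo cells (2.29 ± 0.11, adjusted p = 5.74e-05). The adult beta globin Hbb-bt ran the other way, with 4980, 4060 and 6420 in EryCP cells and 9410, 6320 and 7680 in CR Sca1lo cells. Its groups overlapped, its call (-0.61 ± 0.16, adjusted p = 0.0451) was lost without the slide block (adjusted p = 0.445) and without any 1 of 5 arrays (0.0543 to 0.154), and near-identical globin copies can share its probe. The other 3 of its 4 probes were not called and reached -0.01.

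Of 21 genes of the red cell membrane and blood groups, 10 rose and 2 fell (7 and 1). That is 57.1% called against 20.2% of all genes, with a median of 0.28. Kel, the gene of the Kell blood group glycoprotein, had 198, 192 and 257 in EryCP cells, against 3.52, 9.01 and 4.51 in CR Sca1lo cells (5.35 ± 0.3, 40.8-fold, adjusted p = 0.000119). The slide 2 array of CR Sca1lo was the highest of its group, so that the difference was smallest on that slide (4.41 to 5.83 over slides). Ermap, the gene of the Scianna antigen, had 32.4, 38.8 and 52.8 in EryCP cells and 1.2, 2.04 and 6.83 in CR Sca1lo cells (3.99 ± 0.47, adjusted p = 0.00214). On CR Sca1lo arrays it was well above background on 2 of 3, and it passed the filter through EryCP alone. Its slide 1 value in CR Sca1lo cells lay below the dimmest signal well above background on that array (1.41). The size of the difference is therefore not measured on that slide. Of the membrane skeleton, Sptb (-0.19), Ank1 (-0.02) and Epb42 (0.11) were not called. Slc4a1, the anion exchanger band 3, was not called either (-0.27). The urea transporter gene Slc14a1, which carries the Kidd antigen in humans, fell to 747, 582 and 800 in EryCP cells, against 2220, 1620 and 1980 in CR Sca1lo cells (-1.45 ± 0.13, adjusted p = 0.00072).

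Of 12 genes of iron handling 3 rose and 1 fell (1 and 0), 33.3% called against 20.2% of all genes, with a median of -0.04. Slc11a2, the iron importer DMT1, rose to 360, 287 and 318 in EryCP cells, against 158, 114 and 131 in CR Sca1lo cells (1.27 ± 0.1, adjusted p = 0.000463), with 1 of its 3 probes at 0.01. Tfrc, the transferrin receptor, was not called (-0.1). Of 11 carbonic anhydrase genes 2 rose and 0 fell (2 and 0), 18.2% called against 20.2% of all genes. These were Car1 (730, 780 and 948 in EryCP cells, 86.3, 112 and 88.9 in CR Sca1lo cells, adjusted p = 3.47e-05) and Car2 (167, 179 and 176 in EryCP cells, 28.4, 41.8 and 38.2 in CR Sca1lo cells, adjusted p = 4.62e-05), the forms abundant in red cells. The other 9 lay between -0.67 and 0.26 and were not called.

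The largest rises were those of mast cell genes. Of 13 mast cell proteases and granzymes, 11 rose and 1, Gzmc, fell by 0.26 (11 and 0), 92.3% against 20.2% of all genes, with a median of 3.65. The groups of Gzmc overlapped. Its call (adjusted p = 0.0436) was lost without the slide block (0.575) and without any 1 of the 6 arrays (0.0775 to 0.153). Mcpt2 had 7850, 6050 and 7470 in EryCP cells, against 10.8, 10.5 and 10.6 in CR Sca1lo cells (9.38 ± 0.2, 666-fold, adjusted p = 7e-06). The 3 CR Sca1lo arrays were nearly equal. Cma1, a chymase gene, had 47000, 30100 and 44100 in EryCP cells, against 343, 200 and 293 in CR Sca1lo cells (7.19 ± 0.12, 146-fold, adjusted p = 3.99e-06). Mcpt4 (7.97 ± 0.35) and Cma2 (7.42 ± 0.26) rose alike. These genes belong to 1 cluster of related genes on chromosome 14, and a probe may read more than 1 of them. Sca1hi cells stood between the fractions for Cma1 (2990, 2570 and 3690) and Mcpt2 (46.7, 63.9 and 88.5). Cpa3, the mast cell carboxypeptidase, was bright in both fractions and not called (means of 20400 in EryCP cells and 19200 in CR Sca1lo cells). The summed level of the 13 ran from 89718 to 121274 on EryCP arrays and from 27685 to 37515 on CR Sca1lo arrays. Cma1 made up 37.6% of the EryCP sum and Cpa3 59.1% of the CR Sca1lo sum.

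Of 25 mediators and receptors of mast cells, basophils and eosinophils, 15 rose and 2 fell (10 and 2). That is 68% called against 20.2% of all genes, with a median of 0.66. Hdc, the enzyme that makes histamine, had 7580, 6150 and 6840 in EryCP cells, against 31.5, 30.6 and 33.4 in CR Sca1lo cells (7.75 ± 0.15, 215-fold, adjusted p = 5.79e-06). The groups were separated on all slides by 7.65 to 7.91. Tph1, the enzyme that starts serotonin synthesis, had 413, 338 and 438 in EryCP cells and 10, 40.5 and 21.3 in CR Sca1lo cells (4.26 ± 0.44, adjusted p = 0.00136). Slc6a4, the serotonin transporter, rose to 2040, 1740 and 2220 in EryCP cells, against 44.5, 39.5 and 40.3 in CR Sca1lo cells (5.59 ± 0.1, 48.1-fold, adjusted p = 5.79e-06). The 2 that fell are eosinophil genes, Epx, its peroxidase (6.4, 11.6 and 6.27 in EryCP cells, 24.4, 33.9 and 18.7 in CR Sca1lo cells, adjusted p = 0.000117), and Il5ra, its interleukin 5 receptor chain (21, 17.5 and 13.3 in EryCP cells, 44.7, 43.1 and 40.3 in CR Sca1lo cells, adjusted p = 0.00367). The summed level of the 25 ran from 41323 to 53387 on EryCP arrays and from 18369 to 25234 on CR Sca1lo arrays. Srgn made up 30.3% of the EryCP sum and 43.6% of the CR Sca1lo sum. The part of mast cells or basophils within the EryCP gate in these values was not tested.

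Neutrophil and granule genes moved in both directions. Of 17 tested, 3 rose and 4 fell (2 and 4), 41.2% called against 20.2% of all genes, with a median of -0.07. Mpo, the myeloperoxidase of primary granules, fell to 7190, 4360 and 7540 in EryCP cells, against 44300, 29900 and 40300 in CR Sca1lo cells (-2.61 ± 0.1, 6.09-fold lower, adjusted p = 2.52e-05). It remained bright in all arrays. S100a9, a calcium-binding protein of neutrophils, had 1060, 961 and 1370 in EryCP cells, against 65.1, 28.6 and 66.2 in CR Sca1lo cells (4.49 ± 0.38, adjusted p = 0.000599). Its partner S100a8 rose as well (4.24 ± 0.46, adjusted p = 0.0016), with 1 CR Sca1lo array not well above background. S100a8 had 6.51, 1.5 and 7.74 in CR Sca1lo cells and passed the filter through EryCP alone. Ms4a3, a marker of granulocyte and monocyte progenitors, fell by 1.41 ± 0.12 (adjusted p = 0.000566). The secondary granule genes Ltf (-0.14, with its other probe called lower at -0.55) and Ngp (-0.31) were not called. The summed level of the list was 14468 to 22222 on EryCP arrays and 37792 to 54397 on CR Sca1lo arrays. Ctsg alone made up 56.6% of the EryCP sum and Mpo alone 80.5% of the CR Sca1lo sum.

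Of 17 macrophage and dendritic cell genes 2 rose and 1 fell (2 and 1), 17.6% against 20.2% of all genes. The lectin gene Clec10a had 687, 537 and 333 in EryCP cells, against 7.85, 8.91 and 8.63 in CR Sca1lo cells (5.88 ± 0.28, 58.8-fold, adjusted p = 6.62e-05), and 135, 191 and 208 in Sca1hi cells. The slide 3 array was the lowest of the EryCP group. Ccr2, a chemokine receptor of monocytes, rose (1.14 ± 0.09, adjusted p = 0.000463) and Itgax, the integrin chain CD11c, fell (-2.53 ± 0.13, adjusted p = 9.07e-05). The defining genes Csf1r (0.1), Adgre1 (0.03) and Cd14 (-0.15) were not called and overlapped between fractions. The list summed to 3560 to 3993 on EryCP arrays and 2645 to 3154 on CR Sca1lo arrays. Its member Fcgr3 alone made up 71.8% of the EryCP sum and 84.2% of the CR Sca1lo sum.

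Myeloid transcription factors fell more often than they rose, with 2 of 12 higher and 6 lower (1 and 4). That is 66.7% called against 20.2% of all genes, with a median of -0.39. Id2, an inhibitor of basic helix-loop-helix factors, had 3810, 2920 and 3630 in EryCP cells, against 247, 192 and 231 in CR Sca1lo cells (3.95 ± 0.06, 15.5-fold, adjusted p = 3.99e-06). Its relative Id1 fell to 2.21, 3.24 and 1.81 in EryCP cells, against 12.2, 11.9 and 8.46 in CR Sca1lo cells (-2.19 ± 0.16, adjusted p = 0.000291), and was well above background on 2 of 3 EryCP arrays. The 2 ID genes thus moved in opposite directions on every slide. Cebpa, which drives granulocyte and monocyte fates, had 50.4, 62.5 and 58.7 in EryCP cells and 132, 121 and 124 in CR Sca1lo cells (-1.14 ± 0.1, adjusted p = 0.000806). Spi1, the gene of PU.1, had 14.1, 15.3 and 15.8 in EryCP cells and 20.2, 21.4 and 22.9 in CR Sca1lo cells (-0.52 ± 0.07, adjusted p = 0.00314). Its groups did not overlap, but its call was lost without the slide block (adjusted p = 0.0658), with scaling on the spike-in probes (0.35) and without slide 1 or 2 (0.0572 and 0.0526).

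Of 19 megakaryocyte and platelet genes 6 rose and 4 fell (3 and 2), 52.6% called against 20.2% of all genes. Vwf, which encodes von Willebrand factor, had 390, 359 and 328 in EryCP cells, against 25.8, 47.8 and 35.7 in CR Sca1lo cells (3.34 ± 0.18, 10.2-fold, adjusted p = 0.000106), while Sca1hi cells had 369, 475 and 454, about as much as EryCP cells. Gp1ba, a chain of the receptor for that factor, rose (1.7 ± 0.08, adjusted p = 6.98e-05), and Gp9, of the same complex, fell (-0.99 ± 0.11, adjusted p = 0.0019). The summed level ran from 5296 to 6532 on EryCP arrays and from 3809 to 4636 on CR Sca1lo arrays. Of 29 lymphoid genes 6 rose and 7 fell (0 and 4), 44.8% called against 20.2% of all genes, with a median of -0.12. Tcf7, a T cell factor, fell to 17.6, 15.1 and 15.6 in EryCP cells, against 103 to 111 in CR Sca1lo cells (-2.73 ± 0.14, adjusted p = 8.13e-05). The cytokine gene Il15 fell too, with 4.79, 4.21 and 4.28 in EryCP cells and 44.2, 36.8 and 41.3 in CR Sca1lo cells (-3.2 ± 0.08, 9.19-fold lower, adjusted p = 1.09e-05). Cd3e (-0.04), which defines T cells, was not called, and the lymphoid list summed to 2864 to 3163 on EryCP arrays and 2880 to 3104 on CR Sca1lo arrays.

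Of 23 stem and progenitor transcription factors tested, 1 rose and 10 fell (0 and 5), 47.8% called against 20.2% of all genes, with a median of -0.4. Meis1, a HOX cofactor of stem cells, had 4.03, 3.84 and 3.33 in EryCP cells, against 33.2, 31.2 and 33 in CR Sca1lo cells (-3.12 ± 0.08, 8.72-fold lower, adjusted p = 1.11e-05). Runx2 had 24.7, 17.3 and 20 in EryCP cells and 125, 97.3 and 93.8 in CR Sca1lo cells (-2.35 ± 0.07, adjusted p = 1.7e-05), with 3 of its 4 probes called lower. The 1 that rose was Runx1 (0.37), whose other probe was at 0.12 and not called, whose groups overlapped and whose call was lost without the slide block (adjusted p = 0.728) and without any 1 of the 6 arrays (0.0856 to 0.172). HOX genes gave no call: 0 of 20 passed limma's test, against 20.2% of all genes. Of the 20, 2 had an unadjusted p under 0.05, against 8555 of all 26468 genes. The smallest p was that of Hoxa3 (-0.24, adjusted p = 0.132).

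Among 28 cytokine receptor genes 9 rose and 6 fell (4 and 4), 53.6% called against 20.2% of all genes. The neighbouring receptor beta chain genes Csf2rb2 and Csf2rb rose most. Csf2rb2 had 12500, 12000 and 14100 in EryCP cells, against 940, 760 and 798 in CR Sca1lo cells (3.95 ± 0.09, 15.5-fold, adjusted p = 7e-06). Its near-identical neighbour Csf2rb encodes the beta chain shared by the receptors for interleukin 3, interleukin 5 and GM-CSF. Csf2rb had 11000, 8270 and 12300 in EryCP cells and 1280, 986 and 1260 in CR Sca1lo cells (3.15 ± 0.07, adjusted p = 7e-06). For Csf2rb 1 of 3 probes was at 0.58, and the 2 genes may share signal. Sca1hi cells lay between the fractions for both (means of 2570 and 3310). Csf3r, the receptor for G-CSF, fell to 2.39, 4.73 and 2.09 in EryCP cells, against 15.7, 16.9 and 15.5 in CR Sca1lo cells (-2.48 ± 0.21, adjusted p = 0.000637), above background on 2 of 3 EryCP arrays. Of 30 adhesion and surface antigen genes 8 rose and 6 fell (4 and 4), 46.7% called against 20.2% of all genes. The leukocyte antigens Cd69 (1.47 ± 0.08, adjusted p = 9.87e-05) and Cd81 (1.27 ± 0.08, adjusted p = 0.000145) rose. Cd52 (-1.68 ± 0.09, adjusted p = 9.54e-05) and Cd48, a ligand of the SLAM family (-1.26 ± 0.09, adjusted p = 0.000246), fell.

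Immune signalling genes moved both ways. Of 23 chemokine and chemokine receptor genes 7 rose and 5 fell (5 and 3), 52.2% called against 20.2% of all genes. The inflammatory chemokine gene Ccl3 had 146, 116 and 153 in EryCP cells, against 11.4, 11.5 and 12.2 in CR Sca1lo cells (3.55 ± 0.14, 11.7-fold, adjusted p = 3.47e-05), and Ccl4 rose with it (2.48 ± 0.15, adjusted p = 0.000161). Sca1hi cells had Ccl3 at 129, 95.7 and 89.3, below EryCP and above CR Sca1lo cells on each slide. Ccl9 fell (-1.22 ± 0.09, adjusted p = 0.000345), and so did Ccl5 (-1.19 ± 0.18, adjusted p = 0.00615), whose call was lost without slide 1 (0.0609). Of 27 genes of the TNF family and its receptors 5 rose and 7 fell (2 and 4), 44.4% called against 20.2% of all genes. Tnf itself rose (1.54 ± 0.09, adjusted p = 0.000156), while its receptor gene Tnfrsf1a fell to a mean of 12.4 in EryCP cells, against 109 in CR Sca1lo cells (-3.12 ± 0.1, 8.72-fold lower, adjusted p = 1.99e-05). Tnfrsf1b, the other TNF receptor, was not called (0.06), while its other probe was called lower (-0.95).

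Of 26 lectin-like and paired immune receptors 4 rose and 8 fell (4 and 6), 46.2% called against 20.2% of all genes. Cd300lf, an inhibitory receptor of myeloid cells, had 239, 198 and 207 in EryCP cells, against 14.5, 16.8 and 13.9 in CR Sca1lo cells (3.83 ± 0.1, 14.3-fold, adjusted p = 1.14e-05), while its other probe gave 0.53. Lilrb4a, an inhibitory receptor of mast and myeloid cells, rose too (2.4 ± 0.13, adjusted p = 0.000111). Sca1hi cells were above EryCP cells for both genes (means of 274 and 414), so that CR Sca1lo was the low fraction of the 3. Klra7, of the Ly49 family, fell to 5.23, 4.59 and 4.49 in EryCP cells, against 56.2, 49.6 and 56.2 in CR Sca1lo cells (-3.5 ± 0.08, 11.3-fold lower, adjusted p = 7e-06), although Ly49 genes are alike enough to share a probe. Of 23 interferon response genes 1 rose and 6 fell (0 and 2), 30.4% called against 20.2% of all genes, with a median of -0.29. Rsad2, the antiviral protein viperin, fell by 2.32 ± 0.21 (adjusted p = 0.000825), with 1 of its 3 probes called, and Irf1, a factor induced by interferon gamma, by 1.22 ± 0.08 (adjusted p = 0.000197).

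Immediate early genes, which respond within minutes to growth factors and to handling of cells, rose in 18 of 25 cases and fell in 0 (12 and 0), 72% called against 20.2% of all genes, with a median of 0.72. Fos had 345, 272 and 475 in EryCP cells, against 55.2, 52 and 76.9 in CR Sca1lo cells (2.55 ± 0.22, 5.86-fold, adjusted p = 0.000657). Ier3 had 801, 779 and 824 in EryCP cells, against 198, 154 and 205 in CR Sca1lo cells (2.12 ± 0.11, adjusted p = 9.81e-05). The groups were apart for both. The part of sorting or handling in these values was not tested. Of 29 genes of S phase and mitosis 1 rose and 5 fell (1 and 0), 20.7% called against 20.2% of all genes, with a median of -0.06. Ccne1, the G1/S cyclin E1, rose (0.76 ± 0.07, adjusted p = 0.00107), and Mki67 (0.16), Pcna (0.13) and Top2a (-0.08) were not called. Of 21 inhibitors and G1 regulators 5 rose and 2 fell (2 and 1), 33.3% called against 20.2% of all genes. Rb1, the retinoblastoma gene, had 495, 392 and 471 in EryCP cells and 149, 124 and 150 in CR Sca1lo cells (1.68 ± 0.06, adjusted p = 2.52e-05), with its other probe at 0.5 and not called, and Cdkn1a, the p21 inhibitor, rose (1.19 ± 0.12, adjusted p = 0.00119).

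Of 24 genes of ribosome biogenesis and the Myc network 3 rose and 11 fell (1 and 0). That is 58.3% called against 20.2% of all genes, with a median of -0.31. The falls were small and rested on the slide block: the nucleolar gene Ncl fell by 0.71 ± 0.1 (adjusted p = 0.0038; 0.105 without the block) and Gnl3 by 0.64 ± 0.06 (adjusted p = 0.00115; 0.125 without it), and both calls were also lost with scaling on the spike-in probes (0.0813 and 0.151). Mxd1, an antagonist of MYC, had 932, 719 and 833 in EryCP cells, against 135, 95.8 and 124 in CR Sca1lo cells (2.82 ± 0.09, 7.04-fold, adjusted p = 1.7e-05). Its second probe gave 0.94. Of 17 BCL2 family genes 7 rose and 1 fell (1 and 0), all by less than 2-fold, 47.1% called against 20.2% of all genes. Bnip3, a mitophagy gene, rose (0.91 ± 0.11, adjusted p = 0.00263), and Bcl2 fell (-0.53 ± 0.09, adjusted p = 0.0105). The Bcl2 call was lost without the slide block (adjusted p = 0.118) and without the slide 1 array of either fraction (0.054 and 0.055). It was also lost with scaling on the spike-in probes (0.334) and without slide 1 or 3 (0.13 and 0.0867).

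Of 21 glycolysis genes 8 rose and 2 fell (1 and 2), 47.6% called against 20.2% of all genes, with a median of 0.08. Slc2a1, the glucose transporter GLUT1, had 1110, 863 and 1110 in EryCP cells and 516, 409 and 459 in CR Sca1lo cells (1.15 ± 0.07, adjusted p = 0.00015), while Hk3, a hexokinase of myeloid cells, fell (-1.56 ± 0.15, adjusted p = 0.00106), as did Pdk1 (-0.95 ± 0.08, adjusted p = 0.000732). Of 23 cholesterol genes 3 rose and 5 fell (0 and 0), 34.8% called against 20.2% of all genes, with differences of all 23 between -0.44 and 0.36. Of 17 retinoid genes 1 rose and 0 fell (1 and 0), 5.88% called against 20.2% of all genes. The 1 that rose was Rara, the receptor whose dominant-negative form the line carries. Rara had 39.4, 37.4 and 42.2 in EryCP cells and 20.5, 18.7 and 21 in CR Sca1lo cells (0.99 ± 0.09, adjusted p = 0.000795). Whether its probe also reads the transgene is not given in the sources used here. Of 11 DNA methylation genes 3 rose and 4 fell (1 and 1), 63.6% called against 20.2% of all genes. Dnmt3b, a methyltransferase that sets new methylation, fell to 128, 95.3 and 114 in EryCP cells, against 738, 561 and 633 in CR Sca1lo cells (-2.52 ± 0.1, 5.73-fold lower, adjusted p = 3.17e-05), and Tet2, which oxidises methylcytosine, rose (0.81 ± 0.09, adjusted p = 0.00186). Dnmt3a was not called (0.07), although 1 of its 3 probes was called higher.

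Of 20 ABC and organic anion transporters 2 rose and 7 fell (0 and 4), 45% called against 20.2% of all genes. Slco3a1, an organic anion transporter, fell to 579, 429 and 589 in EryCP cells, against 5240, 4490 and 5080 in CR Sca1lo cells (-3.23 ± 0.08, 9.35-fold lower, adjusted p = 1.09e-05). Abca4 fell to 2.14, 1.98 and 1.8 in EryCP cells, against 31.2, 24.6 and 28.9 in CR Sca1lo cells (-3.84 ± 0.09, adjusted p = 7e-06), and was well above background on 2 of 3 EryCP arrays.

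**Figure D3:**
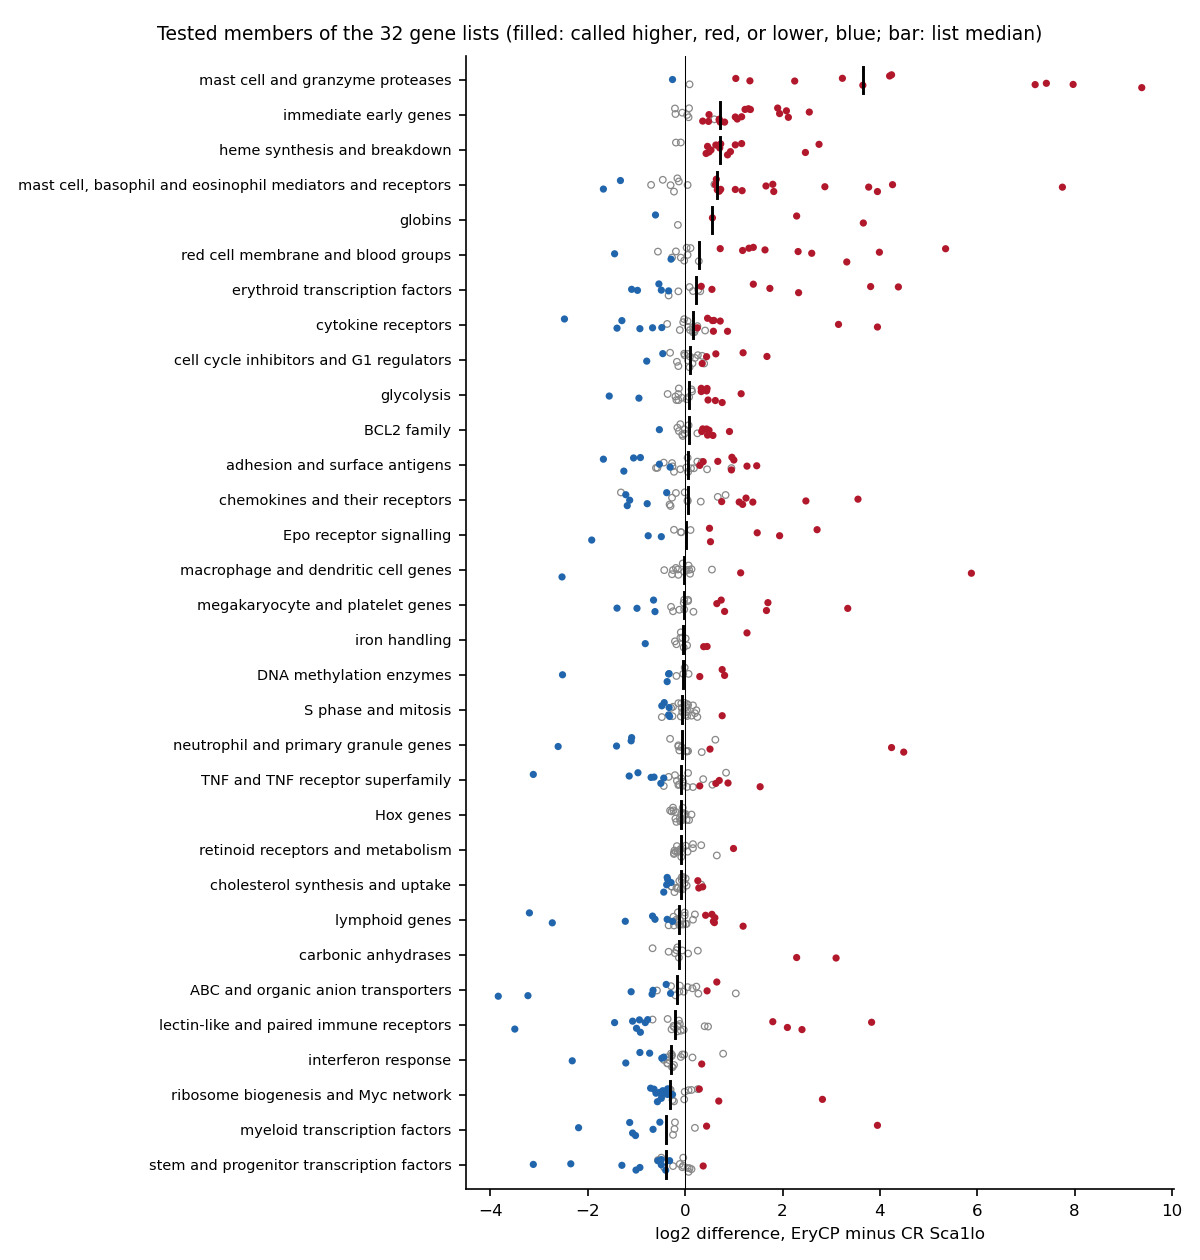
Log2 differences of EryCP minus CR Sca1lo (x axis) of the tested members of 32 gene lists (rows, ordered by median), with called members filled in red (higher) or blue (lower), others open, and a bar at each list's median. Medians run from 3.65 for mast cell and granzyme proteases at the top to -0.4 for stem and progenitor transcription factors at the bottom.

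Further genes were among the 15 largest rises and the 15 largest falls. Pilra, a paired receptor that binds sialylated ligands, had 778, 707 and 720 in EryCP cells, against 4.01, 4.45 and 9.77 in CR Sca1lo cells (7.04 ± 0.26, 131-fold, adjusted p = 2.39e-05). Its activating relative Pilrb1 had 2570, 2170 and 2690 in EryCP cells, against 46, 41.4 and 45.1 in CR Sca1lo cells (5.81 ± 0.07, 56-fold, adjusted p = 1.51e-06). The 2 are close copies and may share signal, and both were apart between the fractions on every slide. Csrp3, a muscle LIM protein gene, had 575, 465 and 737 in EryCP cells, against 8.78, 10.9 and 14.6 in CR Sca1lo cells (5.7 ± 0.37, adjusted p = 0.000205). Sucnr1, the succinate receptor, had 284, 181 and 239 in EryCP cells, against 8.1, 10.2 and 9.22 in CR Sca1lo cells (4.66 ± 0.2, 25.3-fold, adjusted p = 4.56e-05). Gpr34 and Nlgn1 were not well above background on any CR Sca1lo array, so they passed the filter through EryCP alone and their rises are bounds taken against the dimmest signal that was, per array. Their adjusted p-values are those of the measured signals and not of the bounds. Gpr34, a receptor for lysophosphatidylserine, was at least 7.89-fold higher, with 7.73, 5.47 and 46.4 in EryCP cells and 0.386, 0.305 and 0.65 measured in CR Sca1lo cells (adjusted p = 0.00427), a call lost without slide 1 (0.0599). Nlgn1, a neuroligin, was at least 8.74-fold higher, with 14.4, 11.5 and 16 in EryCP cells and 0.361, 0.672 and 0.822 in CR Sca1lo cells (adjusted p = 0.000197). Sytl2, a RAB27 effector, had 34.1, 27.1 and 28.9 in EryCP cells and 0.358, 8.36 and 0.63 in CR Sca1lo cells (4.6 ± 0.93, adjusted p = 0.0167). It was well above background on 1 of 3 CR Sca1lo arrays and passed the filter through EryCP alone. The slide 1 and 3 values of CR Sca1lo lay below the dimmest signal well above background there, so the size of the difference is not measured on those slides, and the call was lost without any 1 of the 4 arrays of slides 1 and 3 (0.0514 to 0.0827).

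Bcl3, a nuclear partner of NF-kappa-B p50 and p52, fell to 56, 42.9 and 57.1 in EryCP cells, against 493, 381 and 486 in CR Sca1lo cells (-3.13 ± 0.07, 8.73-fold lower, adjusted p = 7e-06), and Sca1hi cells had more of it than either (1170, 862 and 1300). The differences on the 3 slides were nearly equal (-3.15 to -3.09). Serpinf1, the secreted factor PEDF, had 121, 86.9 and 138 in EryCP cells and 1090, 788 and 914 in CR Sca1lo cells (-3.02 ± 0.1, adjusted p = 2.06e-05). Prss16, a serine protease of thymic epithelium, had 15.6, 15.7 and 11.9 in EryCP cells and 123, 122 and 113 in CR Sca1lo cells (-3.06 ± 0.09, adjusted p = 1.7e-05). The groups were apart for all of these. The remaining falls among the 15 were Rab3il1 (-3 ± 0.09), Thsd1 (-2.93 ± 0.08), Serpina3f (-2.87 ± 0.08), Kctd14 (-2.84 ± 0.21) and Matn2 (-2.8 ± 0.08). Being lower in EryCP on all 3 slides was a condition for the choice of the 15. For Rab3il1 2 of 3 EryCP arrays were well above background. Sca1hi cells were above both fractions for Rab3il1 (84.4, 76.4 and 87.3), Prss16 (226, 190 and 183) and Serpina3f (300, 230 and 185).

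**Figure D4:**
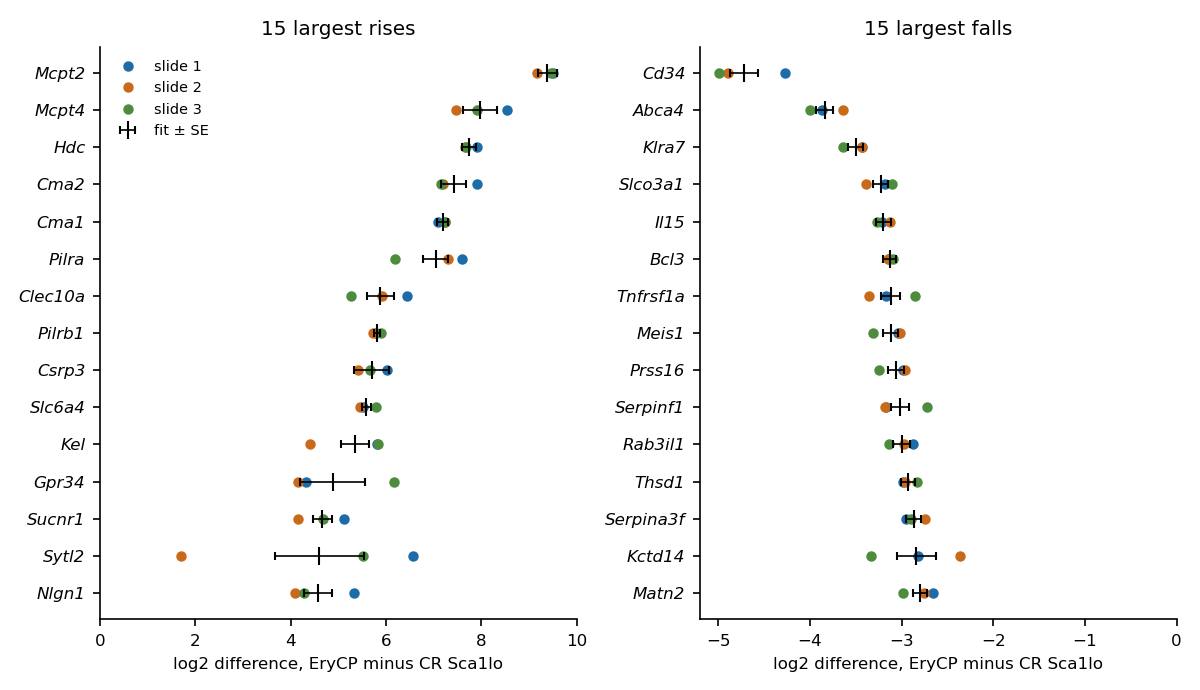
Log2 difference of EryCP minus CR Sca1lo on each slide (coloured points) and from the fit with its standard error (black), for the 15 largest rises (left) and the 15 largest falls (right) among named genes. All points lie on 1 side of 0, which was a condition for choosing these genes. Sytl2 has the widest spread, with CR Sca1lo not well above background on slides 1 and 3.

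A later set of arrays held another comparison of a CD34-low with a CD34-high fraction of the line, CD34- CD103- minus CD34+ CD103- cells, with no sample in common. It called 4732 of the 25931 genes tested in both (18.2%). The difference between the 2 log2 differences was itself tested, and 874 genes differed (3.37%), 492 more positive and 382 more negative in EryCP minus CR Sca1lo. Of 517 genes called at least 2-fold higher here and 384 there, 292 were shared, which is 56.5% of those here and 76% of those there, and 109 of them differed in size. Of 388 genes at least 2-fold lower here and 184 there, 156 were shared, or 40.2% and 84.8%, and 61 differed in size. Of all 905 genes called at least 2-fold apart here and tested in both, shared or not, 413 differed between the comparisons. No gene was at least 2-fold higher here and 2-fold lower there, and 2 were lower here and higher there, the near-identical lysozyme genes Lyz1 and Lyz2, named after their values were seen. The arrays, software version and gates all differ between the sets, and their part in these differences cannot be told apart.

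Several erythroid genes were not shown to differ between the comparisons. Klf1 differed by 4.38 in EryCP minus CR Sca1lo and 4.22 in the later set (difference of 0.16 ± 0.32, adjusted p = 0.887). Kel differed by 5.35 and 5.53 (adjusted p = 0.877), Hbb-bh1 by 3.66 and 3.79 (adjusted p = 0.884) and Car1 by 3.1 and 3.18 (adjusted p = 0.912), which does not show that the sizes are equal. Gata1 rose more here, by 3.81 against 2.91 (adjusted p = 0.0175), and Alas2 likewise, by 2.75 against 1.33 (adjusted p = 0.00567). Hba-a1 rose less here, by 2.29 against 3.18 (adjusted p = 0.0359). So did Gypc (1.64 against 2.85, adjusted p = 0.0193), Rhag (1.31 against 2.66, 0.0172) and Art4 (1.18 against 2.21, 0.0499) of the red cell list. Abcb10 of the heme list rose more here (0.93 against 0.4, adjusted p = 0.00865), as Gata1 and Alas2 did. Among mast cell genes Mcpt2 rose by 9.38 here and 6.55 there (adjusted p = 4.94e-05) and Cma1 by 7.19 and 4.79 (adjusted p = 3.58e-06), while Hdc, at 7.75 and 7.09, was not shown to differ (adjusted p = 0.146). Csf2rb2 rose by 3.95 here and 2.12 there (adjusted p = 1.11e-05). Among falls, Meis1 differed by -3.12 here and -2.24 there (adjusted p = 0.00991), Mpo by -2.61 and -1.23 (adjusted p = 0.000197) and Tcf7 by -2.73 and -1.29 (adjusted p = 0.000519). Ccr2 rose here (1.14) and was not called there (-0.21), and the 2 differed (adjusted p = 3.25e-05). Itgae differed by 3.66 here and 1.58 there, where both fractions had been sorted as CD103-.

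**Figure D5:**
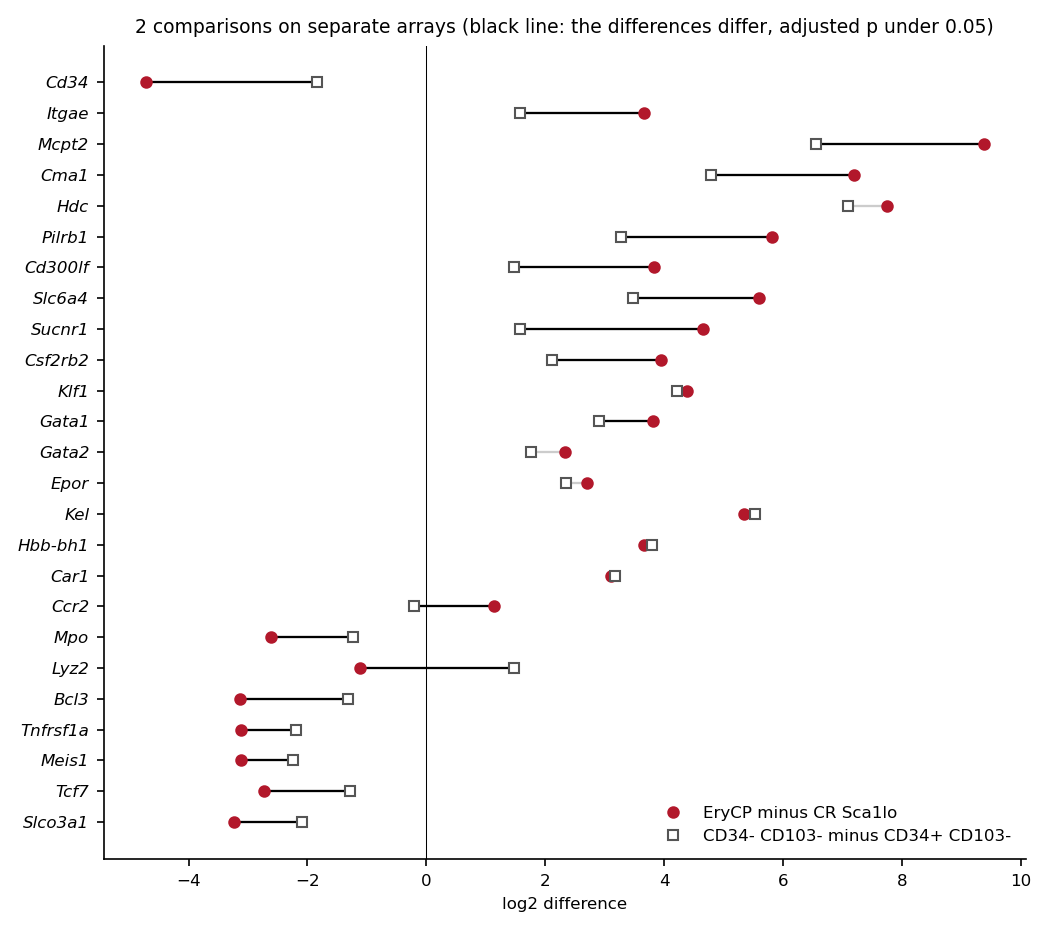
Log2 differences of 25 genes in EryCP minus CR Sca1lo (red points) and in CD34- CD103- minus CD34+ CD103- (open squares), joined by a black line where the 2 differences differ at an adjusted p under 0.05 and by a grey line otherwise. Lyz2 is below 0 in the first (-1.11) and above 0 in the second (1.48).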

How the data were processed

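The deposited files were 1-colour Agilent scanner output, read with Agilent Feature Extraction 10.1.1.1 for the first arrays and 10.7.1.1 for the later set, per the file headers. The intensity of each spot is the processed signal of that software, background-corrected and deposited by the authors without scaling between arrays. The series value table holds the authors' deposited log2 values. On the first arrays these followed the log2 median signal (r of at least 0.9946, array medians 7.18 to 7.21), and on the later set the log2 processed signal (r of at least 0.9998, medians 7.28 to 7.29). The centring behind them is not given in the sources used here.

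Spots of 1 probe were averaged after control spots were left out, and the log2 processed signal was taken minus each array's 75th percentile. Spots marked as outliers were left out. Probes were kept when well above background on every array of at least 1 fraction and measured on at least 2 arrays of each. Where several probes of a gene were kept, the brightest on average stood for it, and disagreeing probes of called genes are given in the text. Symbols came from matching the accessions of the probes to a RefSeq gene table: 27071 of 41174 probes had a symbol and 14103 had none. The fit used limma 3.58.1 in R 4.3.3 (lmFit and eBayes, 2-sided, Benjamini-Hochberg) on the 9 arrays of EryCP, CR Sca1lo and Sca1hi cells with slide as a block. The later comparison was fitted with it on the 20 arrays of both sets. Slides, taken from the array barcodes, pair the arrays because each held 1 array of each fraction and had its own scan time. The deviations of EryCP and CR Sca1lo arrays of a slide correlated at 0.31, 0.80 and 0.87. The scripts were tested on simulated data.

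Named genes were 10 fixed genes, the 15 largest rises and 15 largest falls with 1 sign on all slides and the brighter fraction well above background on all 3 arrays, and up to 2 rises and 2 falls of each of 32 lists. List members central to their list that were not called were named as well. The members and lists were chosen with earlier results of these data known. Of 698 listed genes 631 were tested. Normexp used the median foreground signal in place of the mean signal, with an offset of 50.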

Additional observations from a re-analysis of the deposited data

Results flagged for a closer look

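The results below differ between EryCP minus CR Sca1lo and CD34- CD103- minus CD34+ CD103- cells of the later arrays, tested with limma as a contrast of 4 group means. Each value is the first log2 difference minus the second, and the part of gates, arrays and software version in it cannot be told apart.

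Cd34 fell further in EryCP minus CR Sca1lo (-4.72 against -1.84), a difference of -2.88, and Itgae rose further (3.66 against 1.58), a difference of 2.08. Both encode markers used to sort fractions of the later set. The mast cell proteases Mcpt2 and Cma1 rose further, by 2.83 and 2.4. So did Gata1 (0.9), Pilrb1 (2.54), Cd300lf (2.35) and Sucnr1 (3.08). Carmil1, a regulator of actin capping, rose in both comparisons, by 1.06 and 3.69, a difference of -2.63. Ccl7, a chemokine gene, was not called here (0.67) and rose in the later set (3.84), a difference of -3.17. Lyz1 and Lyz2 fell here (-1.1 and -1.11) and rose in the later set (1.42 and 1.48), differences of -2.53 and -2.59, and their near-identical copies may be read by the same probes.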

How the results depend on the processing

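With slide as the replicate block 5342 genes were called, and with the arrays not paired by slide 1311 (714 higher and 597 lower). The difference between the comparisons was called for 874 genes with the block and 196 without it. A threshold of 0.01 left 2703 calls. Scaling on the spike-in probes gave 1796 (998 and 798; 94 for the difference). Normexp gave 9 calls, 9 higher and 0 lower, all at least 2-fold, with 0 at least 2-fold lower and 6 for the difference. CR Sca1lo replicate 2 held 25 spots with a local background over 5 times the array's median, and Sca1hi replicate 3 held 12. With these backgrounds set to the median, a choice made after seeing the data, normexp gave 6078 calls, with 250 at least 2-fold lower. Leaving out 1 array gave 3109 to 4004 calls (1529 to 1775 higher, 1575 to 2237 lower; 505 to 637 for the difference). Without slide 1, 2 or 3 the calls were 1635, 2121 and 2898 (838, 1052 and 1437 higher; 797, 1069 and 1461 lower; 455, 552 and 451 for the difference). The 6 arrays alone gave 3556 (1866 lower). Quantile normalization, the series value table, no filter or a stricter filter, the mean of a gene's probes, and eBayes with trend and robust settings gave 4219 to 6375 calls. Of 130 named genes called, 97 kept call and sign in each alternative that tested them, plain normexp aside, and 6 with it. The stricter filter did not test 9 of the 130. Under plain normexp the sign turned for Cebpb (-0.17), Il7r (-0.65), Tnfrsf14 (-0.29), Mvd (0.09), Dhcr7 (0.11), Tdg (0.13) and Abca1 (-0.47). The causes were not tested beyond the replaced backgrounds. With 3 arrays a fraction, dim probes and small differences limit what could be called.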
